A study of Homo sapiens with 8 samples.

Results

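The 10 genes described here carry out or restrain the passage of a cell from G1 into S phase: the D-type cyclins CCND1, CCND2 and CCND3, the E-type cyclins CCNE1 and CCNE2, the kinases CDK4 and CDK6, the kinase inhibitors CDKN2A and CDKN1B, and the retinoblastoma gene RB1. They were taken by name from a count table of 57736 Ensembl genes in 8 RNA libraries, and all 10 had a row. The cells were RMG1, an established line from a human clear cell carcinoma of the ovary. The libraries form 4 groups of 2, labelled by ARID1A and CAPH2 status: wild type for both (RMG1_WT), ARID1A knocked out by CRISPR with CAPH2 wild type, a control shRNA (RMG1_shControl) with both wild type, and an shRNA against CAPH2 with ARID1A wild type. The labels give neither the position of the edit, whether the knockout line is 1 clone, nor the shRNA sequences. ARID1A belongs to SWI/SNF, a complex that moves nucleosomes, and CAPH2, encoded by NCAPH2, belongs to condensin II, a complex that folds chromosomes.

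In the textbook account, mitogens raise D-type cyclins, which bind CDK4 and CDK6 and begin to phosphorylate RB1. RB1 then lets go of E2F transcription factors, which switch on the E-type cyclins and the replication genes, and cyclin E with CDK2 completes the phosphorylation. The CDKN2A product p16 blocks CDK4 and CDK6, and the CDKN1B product p27 blocks cyclin E with CDK2. ARID1A is often mutated in clear cell carcinoma of the ovary.

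Libraries held 24559547 to 37378691 counts. Levels are CPM, counts scaled to library size with trimmed-mean (TMM) factors, given per library and as mean ± SD (n = 2). ARID1A stood at 8.80 and 12.1 CPM in wild-type and 6.66 and 5.61 CPM in knockout libraries, and it fell (log2 fold change −0.77, SE 0.16, adjusted p = 0.00274). NCAPH2 stood at 24.0 and 25.8 CPM in shRNA control libraries. In the knockdown it was 8.98 and 8.74 CPM, and it fell (−1.49, SE 0.10, adjusted p = 1.84e-06). NCAPH2 also fell in the knockout, from 26.8 and 30.0 to 21.0 and 23.9 CPM (−0.34, SE 0.09, adjusted p = 0.0144); this did not hold when wild-type library 2 or knockout library 1 was left out. All tests are edgeR quasi-likelihood tests with Benjamini-Hochberg adjustment over 16657 genes, and a gene rose or fell where its adjusted p was under 0.05. The labels do not state whether the 2 libraries of a group are separate cultures; the p-values therefore cover only library-to-library spread, which may be technical. Of 8 markers of clear cell carcinoma and epithelium, 7 were matched and tested and none was at 0, with summed levels of 1954 to 2368 CPM in the 8 libraries. In the knockout 4 of the 7 fell (KRT8 by 0.70, KRT7 by 0.52 and NAPSA by 0.75 on the log2 scale, and CDH6) and EPCAM rose. Of all genes 17.8% fell and 16.8% rose there. In the knockdown 2 of these markers fell and 1 rose, beside 8.22% and 7.62% of all genes. From wild type to shRNA control 3 fell and 1 rose, beside 10.1% and 9.13%. CDH6 was at 258 and 257 CPM in wild-type, 5.34 and 5.88 CPM in knockout, 89.9 and 90.03 CPM in shRNA control, and 43.4 and 45.1 CPM in knockdown libraries. The summed markers of 7 fibroblast genes lay between 0.290 and 1.12 CPM with COL1A2 and COL3A1 at 0, and LUM was at 0 outside the knockout and at 0.356 and 0.705 CPM in it; 5 endothelial genes summed to at most 0.165 CPM with KDR and CLDN5 at 0. The 7 leukocyte markers summed to 1.30 to 3.88 CPM outside the knockout and to 9.76 and 8.41 CPM in it, where SRGN made up 4.605 and 4.361 CPM and PTPRC 2.25 and 1.98 CPM. CD14 went the other way, from 0.372 and 0.435 CPM in wild-type to 0.0274 and 0 CPM in knockout libraries, and CD3E was at 0; the part of these marker changes in the knockout results was not tested.

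Most of the G1 genes were expressed, and 1 was not. CCND2 had no count in 7 libraries and 2 counts in knockdown library 2, and it was the member that did not pass the filter on low counts, so 9 of 10 were tested. Over both libraries, a floor of 3 counts allows CCND2 up to 0.0579 CPM in wild-type, 0.0401 CPM in knockout and 0.0440 CPM in shRNA control cells; the upper ends of their exact 95% Poisson intervals were 0.0712, 0.0493 and 0.0542 CPM. The knockdown stood at 0.0319 CPM, with an exact 95% Poisson interval of 0.00386 to 0.115 CPM that covers counting error only. CDKN2A was detected at a low level, 5 to 29 counts per library. Ordered per kilobase of exon in wild-type cells, the members ran from CCND1 (58.4 ± 1.28 CPM per kb) through RB1 (24.9 ± 2.23), CDK4 (22.1 ± 1.18), CCNE1 (16.4 ± 1.28), CCND3 (12.2 ± 2.13), CDKN1B (10.8 ± 0.566), CCNE2 (10.6 ± 0.301) and CDK6 (5.08 ± 0.746) to CDKN2A (0.0573 ± 0.0136). The ranges of mean ± SD overlapped for RB1 and CDK4, and for CCND3, CDKN1B and CCNE2. With the longest transcript as the length, CDK4 came before RB1, CCND3 before CCNE1 and CCNE2 before CDKN1B, so the middle of the order rests on the length used.

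**Figure D1:**
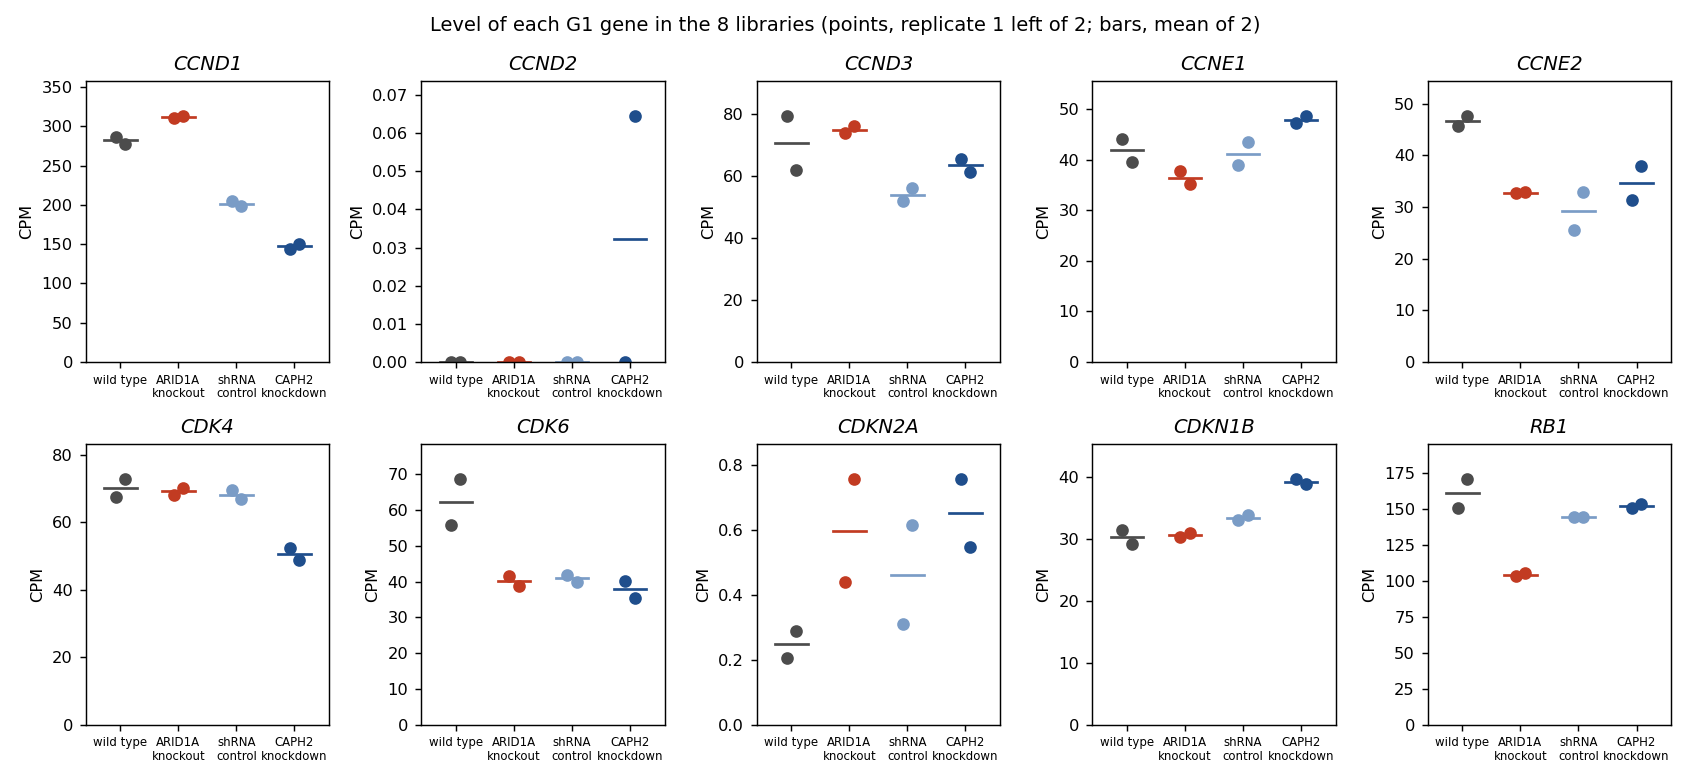
Levels of the 10 genes in CPM, 1 panel per gene with its own axis from 0; points are libraries and short lines are means of 2. CCND1 and CDK4 were lowest in the knockdown, RB1 in the knockout, and CDK6 and CCNE2 were highest in the wild type; CCND2 shows 2 counts in 1 library.

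In the ARID1A knockout RB1, CDK6 and CCNE2 fell and CCND1 rose, the last at the threshold itself. Of the 9 tested members 4 were called, against 34.5% of all tested genes; 3 fell and 1 rose, against 17.8% of all genes that fell and 16.8% that rose. The members' median log2 fold change was −0.02, beside 0.0002 over all genes. For 6 of the 9 the libraries of both groups did not overlap, which held for 64.5% of all genes. In the CAPH2 knockdown CCND1 and CDK4 fell and CDKN1B rose. These 3 calls stand against 15.8% of all genes, with 8.22% of all genes down and 7.62% up. The members' median was 0.22, beside 0 over all genes, and 6 of 9 did not overlap, against 59% of all genes. These counts describe the members and show nothing particular to them.

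Cyclin D1, the product of CCND1 (ENSG00000110092, chromosome 11), is the main partner of CDK4 and CDK6 in many epithelial tumours. CCND1 was at 287 and 278 CPM in wild-type, 310.6 and 313 CPM in knockout, 204 and 198 CPM in shRNA control, and 144 and 150.4 CPM in knockdown libraries. The 4 groups formed 4 separate steps with no overlap. CCND1 fell in the knockdown by 0.45 on the log2 scale (SE 0.05, adjusted p = 0.00012), a change of −26.9%. It rose in the knockout by 0.14 (SE 0.05, 95% interval 0.03 to 0.26, adjusted p = 0.04998), at the threshold itself. That call was lost under 10 of 16 alternatives, among them the omission of wild-type library 2, of either knockout library or of any shRNA control or knockdown library, with an adjusted p of up to 0.191; with a replicate block it was 0.0643. CCND1 was also lower in shRNA control than in wild-type cells (−0.49, SE 0.05, adjusted p = 9.57e-05), a step between the reference groups beside the −0.45 of the knockdown. LTO1, which overlaps CCND1 on the opposite strand, stood at 11.6 to 15.4 CPM and rose in the knockdown (0.33, adjusted p = 0.0490). The 40 nearest tested neighbours of CCND1 had a median of −0.22 in the knockout and 0.07 in the knockdown.

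CCND3 (ENSG00000112576, chromosome 6) encodes cyclin D3, which can stand in for cyclin D1. Its level was 79.4 and 61.9 CPM in wild-type, 73.8 and 76.3 CPM in knockout, 51.8 and 56.0 CPM in shRNA control, and 65.5 and 61.5 CPM in knockdown libraries. Wild-type libraries spread widely and enclosed those of the knockout, and CCND3 did not pass there (0.09, SE 0.10, 95% interval −0.12 to 0.30, adjusted p = 0.526). Without wild-type library 1 it passed in the knockout at 0.27 (adjusted p = 0.0108), and without library 2 its sign turned to −0.08. In the knockdown both libraries lay above both controls, without passing (0.23, SE 0.10, adjusted p = 0.140). That knockdown difference did pass without a filter on low counts and in a fit of its 2 groups alone. Whether it passed also rested on each wild-type library. Over 16 alternatives it lay between 0.18 and 0.29. Between the references CCND3 fell from wild type to shRNA control (−0.39, SE 0.10, adjusted p = 0.0182). That call did not hold when wild-type library 1 or either control library was left out, nor in a fit of these 2 groups alone.

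Summed per kilobase, the D-type cyclins stood at 73.0 and 68.2 CPM per kb in wild-type, 77.0 and 78.0 in knockout, 51.3 and 50.7 in shRNA control, and 41.1 and 41.7 in knockdown libraries. CCND1 made up 82.8% ± 2.18 of that sum in wild-type, 83.3% ± 0.25 in knockout and 81.8% ± 1.15 in shRNA control cells. In the knockdown its share was 73.6% ± 1.46, below every other library, and that of CCND3 was 26.4% ± 1.47. With the longest transcript as the length the CCND1 share was 69.1%, 69.8%, 67.5% and 56.3% in the same order of groups, and that of CCND3 in the knockdown was 43.7%. The ratio of CCND1 to CDKN1B per kilobase, an activator against an inhibitor of G1 kinases, was 5.44 ± 0.167 in wild-type, 5.95 ± 0.0548 in knockout, 3.51 ± 0.140 in the shRNA control and 2.19 ± 0.103 in knockdown cells. These ratios are descriptions with no test.

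**Figure D2:**
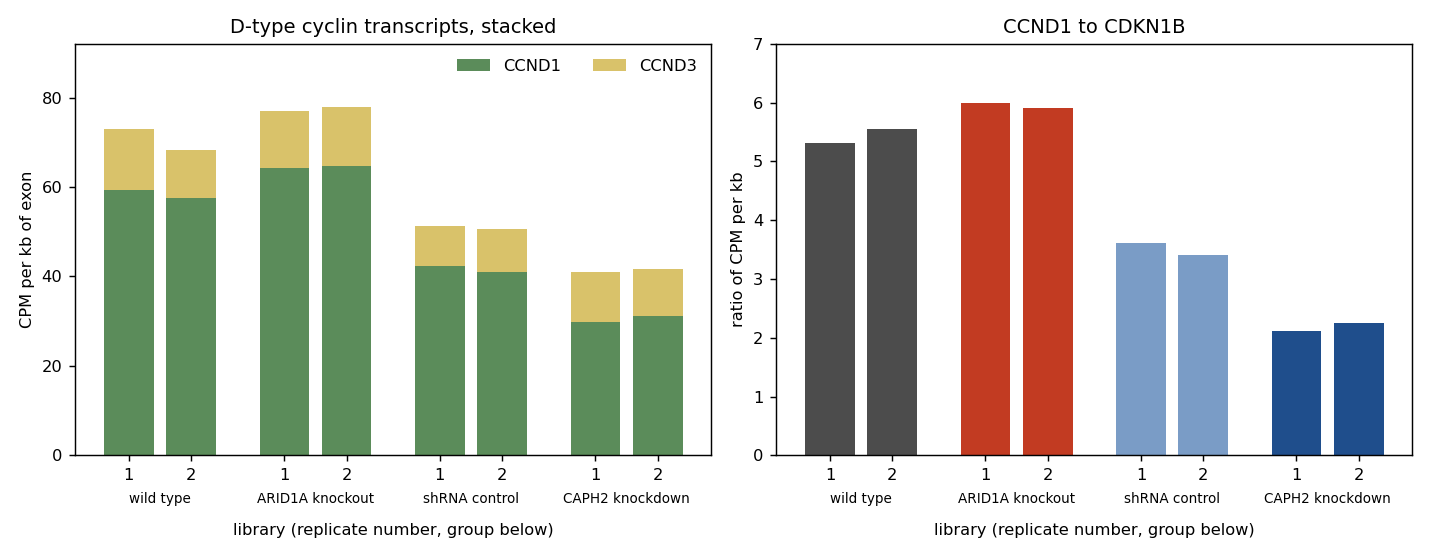
Left, CCND1 and CCND3 stacked in CPM per kb of exon for each of the 8 libraries, with CCND2 left out as it was near 0; right, the ratio of CCND1 to CDKN1B per kb. The stack is highest in the knockout (77.0 and 78.0) and lowest in the knockdown (41.1 and 41.7), and the ratio falls to 2.11 and 2.26 in the knockdown.

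CDK4 (ENSG00000135446, chromosome 12) is a catalytic partner of D-type cyclins. It was steady at 67.5 and 72.8 CPM in wild-type, 68.0 and 70.2 CPM in knockout and 69.5 and 66.7 CPM in shRNA control libraries, and lower at 52.3 and 48.8 CPM in knockdown libraries. The first 3 groups overlapped, and both knockdown libraries lay below all 6 others. CDK4 fell in the knockdown by 0.43 on the log2 scale (SE 0.06, adjusted p = 0.000744), a change of −25.8%, and the call held under all 16 alternatives. In the knockout the difference was −0.02 (SE 0.06, 95% interval −0.16 to 0.12, adjusted p = 0.824). TSPAN31, which overlaps CDK4 on the opposite strand, moved the other way in the knockdown without passing, from 14.7 and 14.0 to 16.8 and 17.7 CPM (0.26, adjusted p = 0.168). Which strand the counting used is not given in the sources used here, so reads of the 2 genes may be mixed.

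The CDK4 promoter is shown because CDK4 was lowered in the knockdown while its neighbours had a median of −0.02. Sequences are from RefSeq on GRCh38.p14, the 250 bases before the start of the gene, written along the gene's strand. Promoter entries were found for 7 of the 10 members. Capitals mark each CACGTG, the E-box that MYC with MAX and other factors of that family can bind, searched on both strands (the motif is its own reverse complement).
CDK4, chr12:57752311-57752560, minus strand: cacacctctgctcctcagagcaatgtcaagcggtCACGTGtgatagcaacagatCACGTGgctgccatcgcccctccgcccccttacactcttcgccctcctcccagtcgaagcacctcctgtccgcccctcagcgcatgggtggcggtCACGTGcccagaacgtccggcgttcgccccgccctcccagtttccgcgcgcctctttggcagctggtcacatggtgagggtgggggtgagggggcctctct
The window holds 3 E-boxes, which begin 216, 196 and 101 bases before the start. Among 35116 promoter windows of that length, 6.34% hold at least 1 E-box and 0.0797% hold 3 or more. The E-box was 1 of several motifs searched, and these shares make no allowance for that choice. The CDK4 window also holds 3 GC boxes (GGGCGG), and 13.9% of windows hold 3 or more of those. Of the other members with an entry, none held an E-box in this window. CCND1, CCND2 and CCNE2 had no entry and were not searched, and CCND1 also fell in the knockdown. The RB1 entry is at a start inside the gene. MYC, named after its values were seen, is in the list of signals into cyclin D. It was at 57.2 and 50.4 CPM in shRNA control libraries and 41.5 and 41.1 CPM in the knockdown, and it fell (−0.38, SE 0.08, adjusted p = 0.0101). The MYC call did not hold when control library 1 or either knockdown library was left out. A match in a sequence shows neither binding nor a link between these levels, which was not tested.

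CDK6 (ENSG00000105810, chromosome 7), the other kinase that D-type cyclins activate, was at 55.8 and 68.7 CPM in wild-type and 41.6 and 38.8 CPM in knockout libraries. It stood at 41.8 and 39.99 CPM in control and 40.2 and 35.5 CPM in knockdown libraries. Only the wild-type libraries were high, and the other 3 groups overlapped. CDK6 fell in the knockout by 0.63 on the log2 scale (SE 0.10, adjusted p = 0.000371), a change of −35.5%, while its 40 neighbours had a median of 0.10 (−0.13 over the 20 nearest). The call held under all 16 alternatives. Against shRNA control cells, a reference added after the data were seen, the knockout differed by −0.02 (SE 0.10, adjusted p = 0.878). In the knockdown the difference was −0.11 (SE 0.10, 95% interval −0.32 to 0.11, adjusted p = 0.530). The ratio of CDK4 to CDK6 per kilobase was 4.39 ± 0.412 in wild-type, 6.66 ± 0.475 in knockout, 6.45 ± 0.0131 in the shRNA control and 5.17 ± 0.197 in knockdown cells.

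CDKN1B (ENSG00000111276, chromosome 12) encodes p27, which is controlled in large part by breakdown of the protein. Its RNA was at 31.4 and 29.1 CPM in wild-type, 30.2 and 30.8 CPM in knockout, 33.0 and 33.8 CPM in shRNA control, and 39.6 and 38.7 CPM in knockdown libraries. Both knockdown libraries lay above all others, and wild type and knockout overlapped. CDKN1B rose in the knockdown by 0.23 on the log2 scale (SE 0.07, adjusted p = 0.0369), a change of 17.4%. The call was lost with DESeq2, without a filter on low counts, with a replicate block (adjusted p = 0.0518) and without either library of the knockout, shRNA control or knockdown group (adjusted p up to 0.219), at values of 0.21 to 0.25. Its neighbours had a median of −0.17 in the knockdown (0.09 over the 20 nearest). In the knockout the difference was 0.01 (SE 0.07, 95% interval −0.14 to 0.16, adjusted p = 0.910). The CDKN1B promoter is printed beside that of CDK4 since they moved in opposite directions; capitals mark CCAAT, the box that NF-Y binds, on either strand.
CDKN1B, chr12:12717118-12717367, plus strand: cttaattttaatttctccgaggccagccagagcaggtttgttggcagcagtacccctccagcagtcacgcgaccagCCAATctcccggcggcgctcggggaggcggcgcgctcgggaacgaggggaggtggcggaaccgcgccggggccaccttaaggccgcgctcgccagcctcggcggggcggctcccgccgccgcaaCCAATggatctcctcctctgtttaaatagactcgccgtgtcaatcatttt
It holds 2 CCAAT boxes, 174 and 50 bases before the start, where 9.53% of promoter windows hold 2 or more. The CDK4 window holds none, and neither do those of CCNE1, CDK6, CDKN2A and RB1. At least 1 is in 32.0% of all windows. CCAAT was 1 of several motifs searched, and a link of these boxes to the opposite changes was not tested. The FOXO site TGTTTAC, in 2.98% of windows, was in neither.

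CDKN2A (ENSG00000147889, chromosome 9) encodes p16 and, from another first exon, ARF, a regulator of p53, and a count per gene cannot tell them apart. It was at 0.207 and 0.290 CPM in wild-type, 0.439 and 0.757 CPM in knockout, 0.309 and 0.614 CPM in shRNA control, and 0.757 and 0.548 CPM in knockdown libraries. The wild-type libraries were the lowest, and the other groups overlapped. The knockout difference of 1.25 (SE 0.61, 95% interval −0.08 to 2.58, adjusted p = 0.140) did not pass. Nor did the knockdown difference of 0.49 (SE 0.55, 95% interval −0.72 to 1.70, adjusted p = 0.630). At 5 to 29 counts per library both intervals are wide and include 0. CDKN2B-AS1, an antisense RNA that overlaps CDKN2A, was far more abundant at 13.9 to 17.4 CPM, so the CDKN2A values are uncertain where reads were counted without strand. CDKN2B, the neighbouring inhibitor p15 of the same kinases, had clear counts. It was at 5.62 and 5.58 CPM in wild-type and 14.7 and 14.4 CPM in knockout libraries, and it rose (1.38, SE 0.14, adjusted p = 1.3e-05). The shRNA control and knockdown libraries held 7.89, 7.01, 6.59 and 8.25 CPM of CDKN2B, and all 6 libraries outside the knockout lay below it. Its neighbours had a median of 0.01, and its knockdown difference was −0.005 (adjusted p = 0.988).

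The E-type cyclins activate CDK2 at the end of G1 and are themselves E2F targets. In bulk RNA, a lower level in every cell and fewer cells in the phase that transcribes a gene cannot be told apart. CCNE1 (ENSG00000105173, chromosome 19) was at 44.1 and 39.5 CPM in wild-type, 37.7 and 35.2 CPM in knockout, 38.8 and 43.4 CPM in shRNA control, and 47.2 and 48.6 CPM in knockdown libraries. Knockout libraries were the lowest and knockdown libraries the highest, and both references lay between and overlapped. Neither step passed alone (knockout −0.20, SE 0.08, adjusted p = 0.0790; knockdown 0.22, SE 0.08, adjusted p = 0.0848). The knockout step passed without wild-type library 2 (adjusted p = 0.0295), and the knockdown step without either wild-type library or in a fit of its 2 groups alone (0.0395 to 0.0419). The difference between them did (−0.42, SE 0.11, adjusted p = 0.0171), and was lost without knockout library 2, control library 1 or knockdown library 2.

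CCNE2 (ENSG00000175305, chromosome 8) was at 45.8 and 47.6 CPM in wild-type and 32.7 and 33.0 CPM in knockout libraries, then 25.5 and 32.8 CPM in control and 31.3 and 38.0 CPM in knockdown libraries. As for CDK6, the wild type alone was high, and shRNA control and knockdown overlapped. CCNE2 fell in the knockout by 0.51 on the log2 scale (SE 0.11, adjusted p = 0.00488), a change of −29.7%, while its neighbours had a median of 0.06. With shRNA control cells as the reference the sign turned, to 0.17 (SE 0.12, adjusted p = 0.273). INTS8, an overlapping gene on the opposite strand, was at 71.3 CPM in wild-type, 72.8 CPM in knockout, 53.4 CPM in shRNA control, and 56.3 CPM in CAPH2 knockdown, cells. In the knockdown the CCNE2 difference of 0.25 did not pass (SE 0.12, adjusted p = 0.192). It did pass without a filter on low counts, and whether it passed also rested on control library 2. Over 16 alternatives it lay between 0.07 and 0.44.

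RB1 (ENSG00000139687, chromosome 13) encodes the pocket protein that these kinases phosphorylate. Its level was 150.4 and 170.8 CPM in wild-type, 103 and 105 CPM in knockout, 144.4 and 144.5 CPM in shRNA control, and 150.2 and 153 CPM in knockdown libraries. The knockout libraries alone were low. RB1 fell in the knockout by 0.63 on the log2 scale (SE 0.06, adjusted p = 1.58e-05), a change of −35.2%. The fall held under all 16 alternatives and against shRNA control cells (−0.47, SE 0.06, adjusted p = 0.000112). In the knockdown the difference was 0.07 (SE 0.06, 95% interval −0.07 to 0.21, adjusted p = 0.529). Genes around RB1 were lower in the knockout too: its 40 neighbours had a median of −0.41 with 80% of them lower, and RB1 minus that median was −0.22. RCBTB2, which overlaps RB1 on the opposite strand, fell from 29.6 and 27.99 to 15.6 and 15.3 CPM (−0.90, SE 0.08, adjusted p = 3.33e-06). The part of these neighbours in the RB1 value was not tested. Of the members, RB1 had the neighbour median farthest from 0 in the knockout, while in the knockdown its neighbour median was −0.07.

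**Figure D3:**
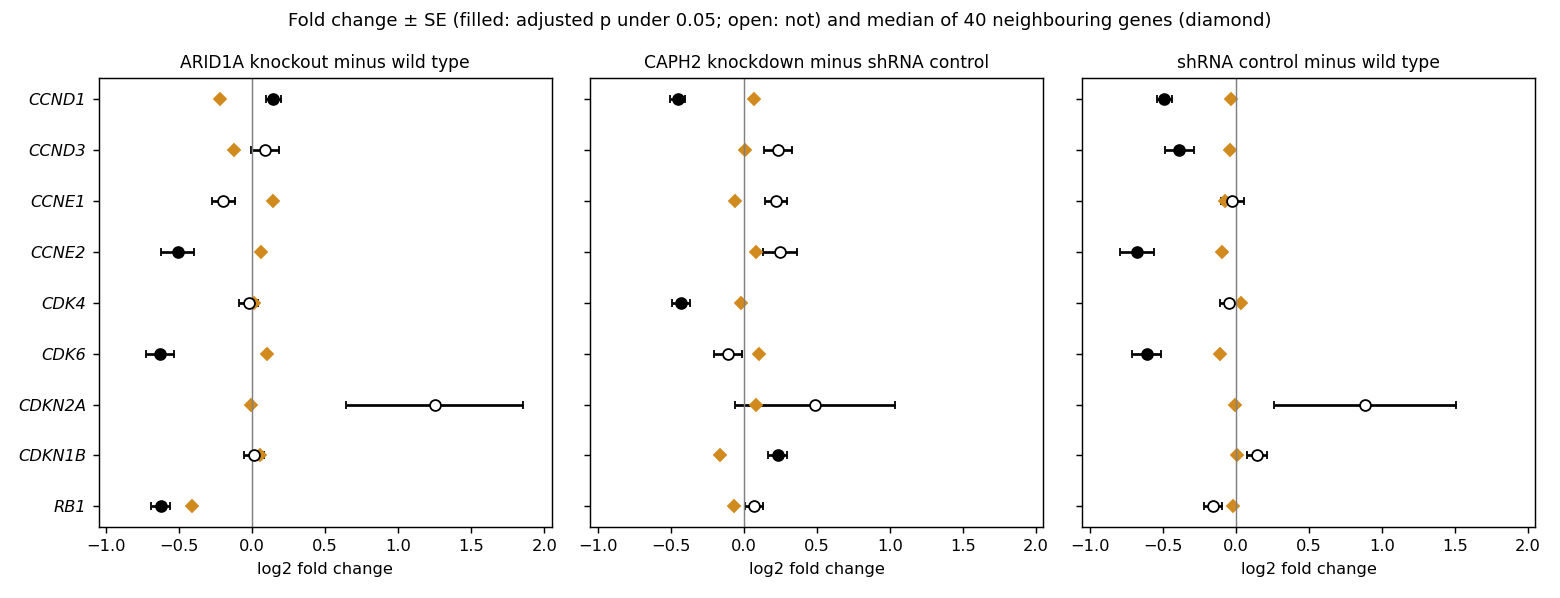
Log2 fold changes of the 9 tested members in 3 comparisons (points with SE; filled where adjusted p was under 0.05), with the median of the 40 nearest tested genes as a diamond. CDK6 is at −0.63 in the knockout and −0.61 in the shRNA control against wild type, and CCNE2 at −0.51 and −0.68, in comparisons that share the wild-type libraries; RB1 is low in the knockout with its neighbours at −0.41.

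The references themselves differed at these genes. Between shRNA control and wild-type cells 4 of 9 members fell and 0 rose, against 10.1% and 9.13% of all tested genes, with 19.2% called in all. At an unadjusted p under 0.05 the edgeR counts were 5 down and 0 up, beside 5328 of all 16657 genes in either direction. For 7 of 9 the libraries did not overlap, against 57.5% of all genes. The falls were those of CCND1, CCND3, CCNE2 (−0.68, SE 0.12, adjusted p = 0.00203) and CDK6 (−0.61, SE 0.10, adjusted p = 0.00135). The knockout and this comparison share the wild-type libraries. With shRNA control cells as the reference, which called 41.8% of all genes (20.9% up and 20.9% down), the knockout had 2 members up and 1 down: CCND1 (0.63, SE 0.05, adjusted p = 2.36e-06) and CCND3 (0.48, SE 0.10, adjusted p = 0.00217) rose and RB1 fell. Which reference matches the knockout in handling is not given in the labels.

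The knockout and knockdown effects, which share no library, differed for 6 of 9 members, against 26.3% of all genes. CCND1 differed by 0.60 (SE 0.07, adjusted p = 0.000107) and CDK4 by 0.41 (SE 0.09, adjusted p = 0.00588), both lower in the knockdown. RB1 (−0.70, SE 0.09, adjusted p = 0.000148), CCNE2 (−0.75, SE 0.16, adjusted p = 0.00509), CDK6 (−0.52, SE 0.14, adjusted p = 0.0157) and CCNE1 went the other way. Of these, 2 differed upward and 4 downward, against 12.3% and 14% of all genes.

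The rest of the pathway was read from lists. Of 5 other CDK inhibitors, 1 rose (CDKN2B) and 1 fell (CDKN1A) in the knockout, and 1 rose in the knockdown (CDKN1A). Over all genes 34.5% and 15.8% were called. CDKN1A, the p53 target p21, was at 44.5 and 53.6 CPM in wild-type, 41.8 and 40.4 CPM in knockout, 25.9 and 26.7 CPM in control and 33.1 and 32.0 CPM in knockdown libraries. Its fall in the knockout (−0.26, adjusted p = 0.0333) became a rise of 0.64 against shRNA control cells (adjusted p = 0.000104). That fall was lost under 9 of 16 alternatives, DESeq2 among them, and was −0.12 (adjusted p = 0.298) without wild-type library 2. Its rise in the knockdown (0.30, adjusted p = 0.0354) was lost without either library of the knockout, control or knockdown group. CDKN1C, CDKN2C and CDKN2D did not pass in either comparison.

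Among 9 other kinases and activators of G1/S, 2 rose and 1 fell in the knockout, and 1 rose and 1 fell in the knockdown, beside the same 34.5% and 15.8% of all genes. The number of rises in the knockout went up without wild-type library 2 and down without knockout library 2. Against shRNA control cells 6 rose, beside 20.9% of all genes. In the knockout CCNH, the cyclin of the CDK-activating kinase, rose (0.46, SE 0.06, adjusted p = 0.000103) and CDK2, the partner of cyclin E, fell (−0.27, SE 0.06, adjusted p = 0.00382). In the knockdown CDK7, the kinase that CCNH activates, rose (0.40, SE 0.08, adjusted p = 0.00400) and WEE1, which restrains CDK1, fell (−0.62, SE 0.08, adjusted p = 0.000246). The CDK7 call did not hold when control library 1 or knockdown library 1 was left out. In edgeR 0 of 10 genes for turnover of G1 regulators passed in the knockdown, beside 15.8% of all genes. At an unadjusted p under 0.05 there was 1, beside 4724 of all 16657 genes. In the knockout 3 fell, led by the deubiquitinase gene USP28 (−0.74, adjusted p = 2.22e-05), whose neighbours had a median of −0.69. The 3 falls stand beside 17.8% of all genes, and they numbered 1 with DESeq2 and without wild-type library 1 or knockout library 1, and 2 without wild-type library 2, knockout library 2 or either control library. FBXO31 lost its call under 13 of 16 alternatives and FZR1 under 3.

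Of 12 RB relatives and E2F genes, 2 fell in the knockout and 1 in the knockdown, and 0 rose in either. At an unadjusted p under 0.05 edgeR had 4 down in the knockout, 3 down in the knockdown and 0 up. Of all 16657 genes, 7160 in the knockout and 4724 in the knockdown were under that p in either direction. Over all genes 17.8% fell in the knockout and 8.22% in the knockdown. Against shRNA control cells 4 of these genes rose and 2 fell in the knockout, beside 20.9% of all genes in each direction. Leaving out either wild-type library raised the count of falls in the knockdown. Without wild-type library 2 the knockout count was 1. TFDP2, a partner of E2F factors, was the gene that fell in both (−0.32 and −0.34, adjusted p = 0.000511 and 0.000825), from 262 and 252 CPM in wild-type to 206 and 208 CPM in knockout, and from 203 and 200.05 CPM in shRNA control to 162 and 157 CPM in knockdown libraries. Against shRNA control cells the knockout value was 0.04. E2F2 fell in the knockout (−0.71, SE 0.17, adjusted p = 0.00651), where its neighbours had a median of −0.53; it did not pass when wild-type library 2 was left out. E2F1 was at 10.8 and 10.6 CPM in wild-type and 7.87 and 9.43 CPM in knockout libraries and did not pass (−0.31, adjusted p = 0.111). The RB1 relatives RBL1 and RBL2 did not pass in either comparison.

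Of 19 tested E2F target genes, 9 fell and 1 rose in the knockout, with a list median of −0.20, beside 17.8% and 16.8% of all genes. PCNA, the sliding clamp of replication, led the falls (−0.47, SE 0.05, adjusted p = 3.32e-05), at 407 and 417 CPM in wild-type, 288 and 308 CPM in knockout, and 309 to 317 CPM in the other 4 libraries. The MCM4 helicase gene fell as well (−0.28, adjusted p = 0.00279), at 383 and 352 CPM in wild-type, 306 and 299 CPM in knockout and 292 to 310 CPM in the other 4 libraries. Against shRNA control cells PCNA was at −0.06 (adjusted p = 0.406) and the MCM4 groups overlapped (adjusted p = 0.99994). In the knockout the methyltransferase gene EZH2 was the 1 that rose (0.18, adjusted p = 0.0370, passing under 5 of 16 alternatives). The count of 9 went down when either knockout library was left out. Against shRNA control cells 5 fell and 4 rose, beside 20.9% of all genes in each direction. In the knockdown 2 fell (TYMS and MCM7) and 2 rose (CDC45 and RRM2), with a list median of 0, beside 8.22% and 7.62% of all genes. Both counts changed with the library left out.

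Among 10 genes that signal into cyclin D, 4 fell and 2 rose in the knockout and 4 fell and 1 rose in the knockdown, beside 34.5% and 15.8% of all genes called. Without control library 1 the falls in the knockdown numbered 2. STAT3, a transcription factor of cytokine signalling, went in opposite directions: it fell in the knockout (−0.52, SE 0.05, adjusted p = 1.76e-05) and rose in the knockdown (0.63, SE 0.05, adjusted p = 9.61e-06). The test of that difference gave an adjusted p = 7.18e-07. ETS1 fell in both (−1.92 and −1.68, adjusted p = 2.99e-05 and 0.000223). CTNNB1, or beta-catenin, rose in the knockout (0.65, adjusted p = 1.82e-06). JUN, a component of AP-1, fell in the knockdown from 44.8 and 43.9 to 25.98 and 29.4 CPM (−0.68, SE 0.09, adjusted p = 0.000245). JUN fell in the knockout too (−0.37, SE 0.08, adjusted p = 0.00487), where its value against shRNA control cells was 0.0023. The list median was −0.20 in the knockout and −0.27 in the knockdown.

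**Figure D4:**
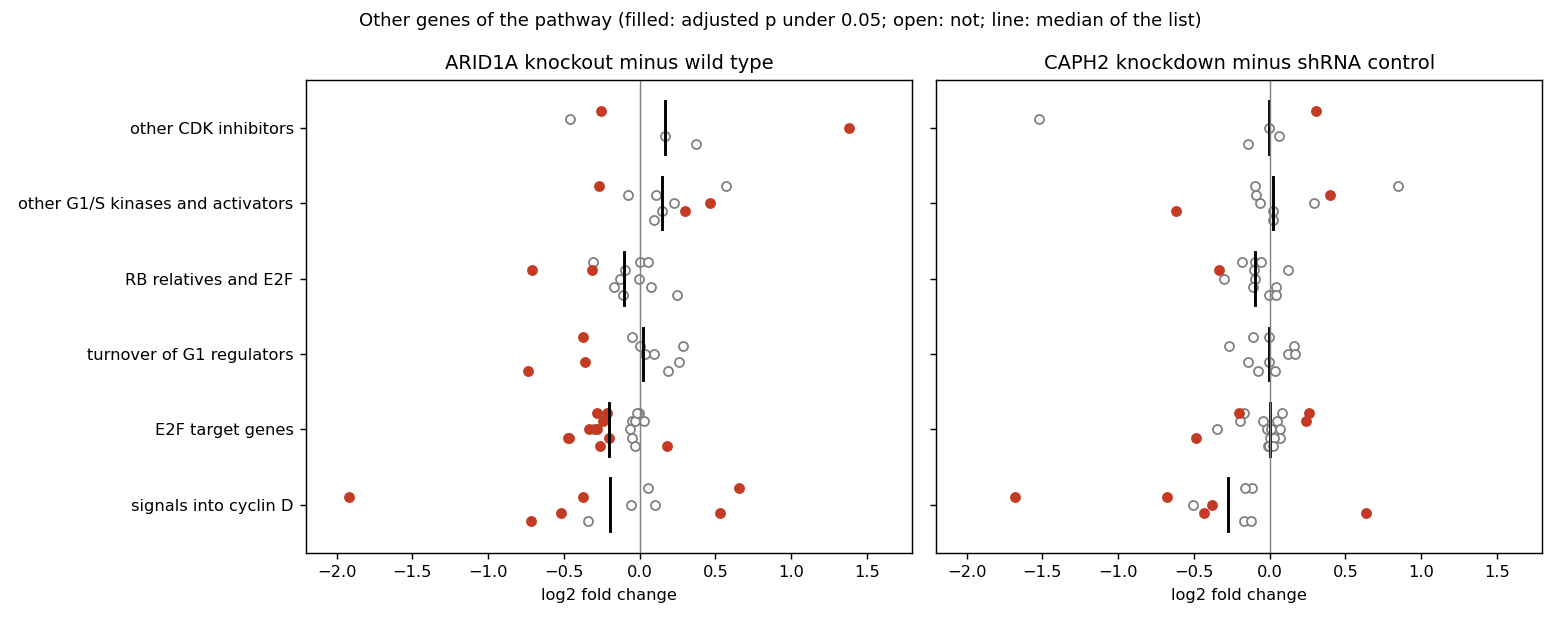
Log2 fold changes of the other pathway genes, 1 point per gene, in the knockout (left) and the knockdown (right); filled points passed at adjusted p under 0.05 and black lines are list medians. Among the E2F targets 9 of 19 passed as lower and EZH2 as higher in the knockout, with a median of −0.20, and 2 passed in each direction in the knockdown.

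The 3 members with the widest range of group means on the log2 scale were CDKN2A (1.201), CCND1 (1.08) and CDK6 (0.71). The CDKN2A range rests on 5 to 29 counts per library, and its knockout and knockdown differences did not pass. Likeness to these 3 members was measured over the 8 libraries, among 12758 other genes. It was the root mean square difference of log2 CPM, each gene centred on its own mean. The genes searched had a mean of at least 1 CPM, a level CDKN2A did not reach. For CCND1 the nearest were EPB41L2 (0.0644), STRAP (0.0736) and CHORDC1 (0.0786). For CDK6 they were PEF1 (0.0755), FKBP1A (0.0941) and ADD3 (0.0945). For CDKN2A they were APOLD1 (0.202), THEM6 (0.261) and RHOBTB1 (0.263).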

How the data were processed

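The deposited values are RSEM expected counts, 1 column for each library. Per the submitters' processing notes, Bowtie2 and RSEM 1.2.12 were used with hg19; annotation release and strandedness: not given in the sources used here. All values were whole. RSEM divides reads that match several genes. Total RNA was isolated with Trizol and DNase and made into TruSeq libraries, per the labels' protocols. Symbols came from tables of Ensembl IDs and GENCODE 29, on GRCh38, which also gave exon lengths, neighbours and overlaps.

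All 8 libraries entered 1 fit of group means in edgeR 4.0.16 (R 4.3.3) after filterByExpr and TMM scaling, leaving 4 residual degrees of freedom; the common biological variation (BCV) was 7.74%. The fit was run on simulated counts with the same spread for every gene and changes larger than those called for the members. That run checks the fitting steps and not the calls reported here. SEs are the log2 fold change divided by the root of F. Neighbours are 20 tested genes on each side. DESeq2 1.42.0 and other settings were tried. The members, lists and rule for named genes were chosen with earlier results of these data known. The rule took all 10 members, the targets, and up to 2 genes per list, direction and comparison by adjusted p. It also took any inhibitor or E2F gene and the 3 most alike genes of the 3 widest members. Genes overlapping a member, MYC and FBXO31 were named outside the rule, after their values were seen. ETS1 and JUN were named by their knockdown falls, and in the knockout FOXO3 fell with a smaller adjusted p than either. Replicate numbers are shared between groups, and the fit used no block. Precision rests on 2 libraries per group, where 1 count is worth 0.0261 to 0.0413 CPM. UHRF1 was not matched.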

Additional observations from a re-analysis of the deposited data

Results flagged for a closer look

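The knockout and knockdown effects differed by the test of their difference for 6 members, on the log2 scale: CCND1 (0.60), CDK4 (0.41), CCNE1 (−0.42), CDK6 (−0.52), RB1 (−0.70) and CCNE2 (−0.75). Under 15 alternatives, CCND1, CDK4, CCNE2 and RB1 kept the call in each, while CCNE1 and CDK6 each lost it under 3 that left out 1 library (adjusted p up to 0.0841 and 0.0796). For CDK6 and CCNE2 the knockout value rests on wild-type libraries that also stood above the shRNA control. Groups of 2 are too small for a check of single libraries that stand apart.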

How the results depend on the processing

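Leaving out 1 library gave 1360 to 3494 genes called in the knockdown (2639 with all) and 2 to 5 members (3 with all), and 1553 to 3410 genes between shRNA control and wild type (3205 with all). A fit of the knockdown and its control alone also called CCND3 and CCNE1, where 1360 to 3494 of all genes were called over the 16 alternatives. Counts of genes in the knockout lay between 3928 and 5993 over 16 alternatives (5751 reported). Falls of CDK6, CCNE2 and RB1 in the knockout and of CCND1 and CDK4 in the knockdown kept direction and call in all 16; the calls of CCND1 in the knockout and CDKN1B in the knockdown did not, and their causes were not tested.

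Signs turned as follows. CDK4 in the knockout was 0.00059 with upper-quartile factors, 0.0143 with library totals, 0.0207 against shRNA control (a reference chosen after seeing the data), and −0.0783 to 0.0344 on leaving out 1 library. CDKN1B there was −0.13 against shRNA control and −0.0400 to 0.0638 on leaving out 1 library, and CCND3 −0.0806 to 0.274. Against shRNA control the knockout gave 0.17 for CCNE2, 0.64 for CDKN1A, 0.0372 for TFDP2 and 0.0023 for JUN. Leaving out 1 library gave −0.314 to 0.0404 for CCND3 in the difference of effects. Between shRNA control and wild type it gave −0.106 to 0.0558 for CCNE1, −0.0991 to 0.0140 for CDK4 and −0.309 to 0.153 for ARID1A.

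With the longest transcript as length, wild-type ranks became 2 for CDK4, 3 for RB1, 4 for CCND3, 5 for CCNE1, 6 for CCNE2 and 7 for CDKN1B. With 10 neighbours on each side, knockout medians became −0.000816 for CCND1, −0.13 for CDK6 and 0.25 for CDKN1B, and knockdown medians −0.10 for CCND3, 0.25 for CDK6 and 0.0917 for CDKN1B.

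The replicate block called 5500 genes in the knockout and 2483 in the knockdown, with 3 and 2 members. Deviations of same-numbered libraries correlated at −0.0239 to 0.0296, so the numbers gave no sign of pairing.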
